A study of Mus musculus with 5 samples.

Results

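The genes described here encode calprotectin and granule proteins of neutrophils, short-lived phagocytes that a sort of B cells should leave out. They are S100a8, S100a9, Camp, Ngp, Ltf, Lcn2, Elane and Mpo, and the members were all probe sets that the platform annotation names for one of these symbols. The 8 genes had 8 probe sets, 1 each, among 34958 probe sets that name 18194 genes by 1 symbol each, and no member probe set carried a further gene symbol. Expression was measured in B cells of the germinal centre, where activated B cells divide and mutate their antibody genes. The cells were sorted by flow cytometry from spleens of C57BL/6 mice aged 12 weeks, 7 days after an injection of sheep red blood cells. The 2 REL arrays came from eGFP+ cells of mice with the genotype relfl/flCg1-Cre, in which the alleles of Rel are flanked by loxP sites and Cg1-Cre is carried as well. Rel encodes c-Rel, a subunit of NF-kB. The 3 WT arrays came from eGFP- cells of Cg1-Cre littermates, so that both groups carried the Cre. The Cre is driven from the gene for the antibody heavy chain constant region gamma 1, which B cells switch on during the response. The eGFP gate differed between the groups together with the genotype, so the effects of the gate and of the genotype cannot be told apart. Whether the arrays of a group are different animals is not stated in the labels, so the p-values rest on a spread between arrays that may be technical.

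Neutrophil precursors make the members in stages. Elane, the serine protease neutrophil elastase, and Mpo, myeloperoxidase, are made by promyelocytes and packed into primary (azurophil) granules, and their mRNAs are low in mature neutrophils. Camp, the cathelicidin antimicrobial peptide, Ngp, neutrophilic granule protein, Ltf, the iron-binding lactoferrin, and Lcn2, the siderophore-binding lipocalin 2, are made by myelocytes and metamyelocytes for secondary (specific) granules. S100a8 and S100a9 encode the 2 subunits of calprotectin, a calcium- and zinc-binding dimer that fills the cytosol of mature neutrophils, and monocytes express both. C/EBP factors and PU.1 drive much of this programme.

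S100a8 and S100a9 lie next to each other, with 0 annotated genes between them, and Camp, Ngp and Ltf share a chromosome, with 18 annotated genes between Camp and Ngp. The 250 bases before the annotated start are shown for S100a8, S100a9 and Ngp, the 3 members with a mean signal above that of dim probe sets. For Ngp that mean rested on WT 2 alone (166), as the other arrays lay at 5.64 to 19.7. The sequences are from RefSeq (GRCm38.p6), which held all 8 members, and are printed 5′ to 3′ on the strand of the gene. Those of S100a8 lie at chr3:90668821-90669070 (plus strand), those of S100a9 at chr3:90695722-90695971 (minus strand) and those of Ngp at chr9:110419558-110419807 (plus strand). Capitals mark matches, on either strand, to TTGCNNAA (C/EBP), GAGGAA (the core bound by PU.1), GGGANTTCC (NF-kB, a narrow form of its consensus) or the TATA box core TATAAA. No matches overlapped in the printed sequences.
S100a8: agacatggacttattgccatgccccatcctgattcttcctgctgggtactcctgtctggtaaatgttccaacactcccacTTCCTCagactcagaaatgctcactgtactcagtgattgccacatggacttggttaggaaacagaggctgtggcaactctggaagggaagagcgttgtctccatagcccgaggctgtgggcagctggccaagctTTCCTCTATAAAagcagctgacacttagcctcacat
S100a9: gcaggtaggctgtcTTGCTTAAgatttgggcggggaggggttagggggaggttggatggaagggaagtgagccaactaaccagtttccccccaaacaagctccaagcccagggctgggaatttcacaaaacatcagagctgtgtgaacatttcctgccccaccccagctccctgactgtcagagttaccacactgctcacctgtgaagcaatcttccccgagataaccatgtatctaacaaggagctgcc
Ngp: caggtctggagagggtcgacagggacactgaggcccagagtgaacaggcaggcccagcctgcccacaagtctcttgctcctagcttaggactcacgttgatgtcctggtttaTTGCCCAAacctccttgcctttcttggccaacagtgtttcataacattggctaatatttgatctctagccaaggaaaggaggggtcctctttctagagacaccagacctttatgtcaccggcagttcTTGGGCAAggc

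In the S100a8 sequence the PU.1 core had 2 matches, beginning 170 and 36 bases before the start, and the second ran directly into the TATA box at 30 bases. The S100a9 sequence held 1 C/EBP match, beginning 236 bases before the start, and the Ngp sequence held 2, beginning 138 and 11 bases before it. Over all 8 members the C/EBP motif was found in 4 (S100a9, Ngp, Ltf and Lcn2), against 9.56% of the 32851 promoters of the same length. The PU.1 core was found in 5 (S100a8, Ltf, Lcn2, Elane and Mpo), against 23.3% of all promoters. The TATA box letters were found in 1 member, against 12.4% of all promoters. The NF-kB letters were found in 0 members, against 1.43% of all promoters. These matches describe letters and not binding.

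The values are MAS5 signals on a linear scale, every array having a 2% trimmed mean of 500. The median signal was 48.1 and 30.1 on REL 1 and REL 2 and 40.7 to 54.6 on the WT arrays, so REL 2 was the dimmest array among low signals. A signal of 33.0, the 40th percentile of mean signals over the 34958 probe sets with 1 gene symbol, is called the dim level here. On REL 1 and REL 2 40.6% and 46.8% of probe sets lay below it, against 36.4% to 43.3% on the WT arrays. Rel, the targeted gene, had signals of 18.6 and 85.2 in REL and 492, 134 and 206 in WT. Neither REL signal reached the lowest WT signal, and the labels do not say whether this probe set lies in the deleted part. All 7 B cell genes analysed exceeded the dim level on at least 1 array. That sets them little apart, as only 27.5% of all probe sets stayed below it on every array. The labelled cell type showed in the high signal of the B cell antigen CD20 (Ms4a1), which had 12227 and 13620 in REL and 12413, 14851 and 14757 in WT.

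S100a8 and S100a9, the calprotectin genes, were the brightest members. Both were highest on WT 2 and on average dimmer in REL, by 1.65 on the log2 scale each, but the groups overlapped in both genes and neither difference passed the test. In bulk samples, fewer cells of a type and less RNA per cell cannot be told apart.

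S100a8 (probe set 1419394_s_at) had signals of 55.9 and 17.8 on REL 1 and REL 2 and of 187, 301 and 41.6 on WT 1, WT 2 and WT 3. WT 1 and WT 2 stood above both REL arrays, while WT 3 lay between REL 1 and REL 2. The means were 36.8 ± 27.0 in REL (SD, n = 2) and 176 ± 130 in WT (SD, n = 3). On the log2(signal + 16) scale, which understates changes of dim genes, the difference was −1.65 (SE 0.88, 95% interval −3.64 to 0.34, limma adjusted p = 0.778 over all probe sets). With each array left out in turn the sign was kept, with differences from −2.36 to −1.11 (limma adjusted p = 0.631 to 0.976).

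S100a9 (1448756_at) had signals of 253 and 3.98 on REL 1 and REL 2 and of 494, 789 and 13.8 on WT 1 to WT 3. The gene was thus above the dim level on REL 1, WT 1 and WT 2 and below it on REL 2 and WT 3, and each group held both states. Within REL the arrays differed by 63.6-fold and within WT by 57.1-fold. The means were 129 ± 176 in REL (SD, n = 2) and 432 ± 391 in WT (SD, n = 3), and the log2 difference was −1.65 (SE 1.51, 95% interval −5.08 to 1.78, limma adjusted p = 0.862). Its sign turned without REL 2, to 0.23 (limma adjusted p = 0.989). Without REL 1 the difference was −3.53, and without WT 1, WT 2 and WT 3 it was −1.08, −0.75 and −3.13 (limma adjusted p 0.624 to 0.993 over the arrays left out).

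**Figure D1:**
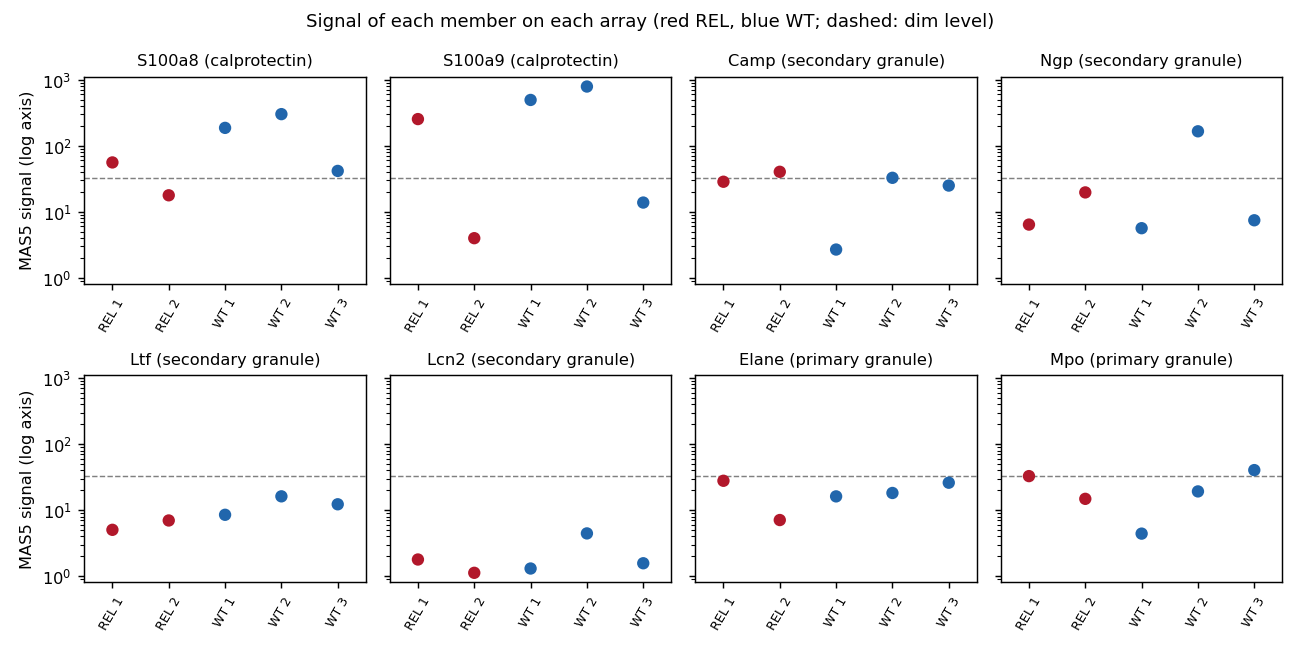
MAS5 signal (log axis) of the 8 members on the REL arrays (red) and the WT arrays (blue), 1 point per array, with the dim level of 33.0 as a dashed line. S100a8 and S100a9 spread widely within each group, Ngp exceeds the dim level on WT 2 alone, and the other members stay near or below that level.

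The calprotectin genes shared an order of arrays within the groups, with WT 2 above WT 1 above WT 3 and REL 1 above REL 2. This order, looked for after the values were seen, was found in these 2 of the 8 members and in 6.86% of all 34958 probe sets. Most listed genes lacked it, as it was found in 3 of 30 other neutrophil genes (Ctsg, Cd177 and Il1b), in 4 of 20 macrophage and monocyte markers (Mertk, Mrc1, Lyz1 and Lyz2) and in 1 of 9 erythroid and platelet markers (Hbb-b2). It was also found in 1 of 7 B cell markers (Pax5) and 1 of 8 germinal centre B cell markers (Mybl1). Among eosinophil, basophil and mast cell markers it was found in 0 of 10, and among T cell markers in 0 of 8. The lysozyme genes Lyz1 and Lyz2 are expressed by neutrophils and macrophages. Lyz2 had signals of 1318 and 442 on REL 1 and REL 2 and of 71.0, 321 and 10.8 on WT 1 to WT 3, so that for lysozyme the lower REL signal still exceeded the highest WT signal (log2 difference 3.08, SE 1.01, limma adjusted p = 0.664). Lyz1 and Lyz2 are near-identical and their probes may not tell them apart. The beta-globin gene Hbb-b2, a red cell gene, had 82.1 and 35.5 in REL and 290, 532 and 88.0 in WT (log2 difference −1.87, SE 0.81, limma adjusted p = 0.751).

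Among probe sets outside the members with a mean above the dim level (20972 in all), the profiles nearest to the mean of the calprotectin pair over the 5 arrays were those of Commd7, Gpn1, Poglut2, Nudt7 and Ube2q2. Their Euclidean distances on centred log2(signal + 16) values were 0.83, 1.30, 1.37, 1.39 and 1.40 log2 units from that mean, and S100a8 and S100a9 themselves each lay 1.33 from it. Of the 5, Commd7 and Gpn1 were thus nearer to the mean than the pair and the other 3 were farther. Commd7, the nearest, had signals of 290 and 16.7 in REL and 341, 560 and 50.2 in WT. None of the 5 is among the neutrophil genes listed here.

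The 4 secondary granule genes were dim. Ngp exceeded it on WT 2 only and Camp on REL 2 only, and Ltf and Lcn2 on 0 arrays. With Elane, that made 3 of 8 members below the dim level on every array, against 27.5% of all probe sets. None differed between the groups by the test.

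Ngp (1418722_at) had signals of 6.40 and 19.7 in REL and of 5.64, 166 and 7.44 in WT. WT 2, the array with the highest S100a8 and S100a9 signals, stood alone above the dim level, and the other WT arrays lay between the 2 REL arrays or below both. The log2 difference was −0.68 (SE 0.88, 95% interval −2.67 to 1.32, limma adjusted p = 0.911), and without WT 2 it was 0.33 (limma adjusted p = 0.956).

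Camp (1419691_at) had signals of 28.5 and 40.3 in REL and of 2.68, 32.7 and 25.0 in WT. REL 2 lay highest and WT 1 lowest, and the groups overlapped (log2 difference 0.58, SE 0.55, 95% interval −0.65 to 1.82, limma adjusted p = 0.865). Without WT 1 the difference was 0.17. Camp was thus higher on average in REL while Ngp was higher on average in WT, although both encode secondary granule proteins related to cathelicidins, and neither difference passed the test.

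Ltf (1450009_at) had signals of 5.03 and 6.97 in REL and of 8.50, 16.2 and 12.3 in WT, all below the dim level. It was the 1 member whose groups did not overlap, with both REL arrays below every WT array, an arrangement found in 14.1% of all probe sets. The log2 difference was −0.36 (SE 0.26, 95% interval −0.96 to 0.24, limma adjusted p = 0.829). Lcn2 (1427747_a_at) was the dimmest member, with 1.79 and 1.12 in REL and 1.31, 4.44 and 1.57 in WT, and its log2 difference of −0.08 (SE 0.15, limma adjusted p = 0.951) turned to 0.060 under median centring of the arrays.

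The primary granule genes were dim as well, as Elane stayed below the dim level on all arrays and Mpo exceeded it on WT 3 only. Elane (1422928_at) had signals of 27.8 and 7.08 in REL and of 16.2, 18.2 and 26.0 in WT, and REL 1 and REL 2 were the highest and the lowest of the 5 arrays. Its log2 difference was −0.17 (SE 0.43, 95% interval −1.16 to 0.81, limma adjusted p = 0.961), and without REL 2 it was 0.29. Mpo (1415960_at) had signals of 32.8 and 14.8 in REL and of 4.41, 19.2 and 40.4 in WT, where WT 1 was the lowest and WT 3 the highest array. Its log2 difference was 0.17 (SE 0.53, 95% interval −1.03 to 1.38, limma adjusted p = 0.969), and it was −0.20 without WT 1 and −0.16 without REL 1. WT 2, the array with the most S100a8, S100a9, Ngp, Ltf and Lcn2, was not the highest array for Camp, Elane or Mpo.

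**Figure D2:**
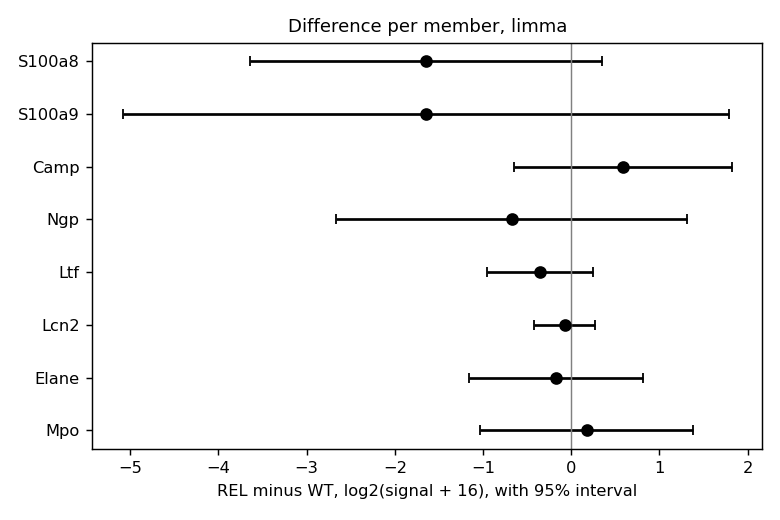
Difference of REL minus WT on the log2(signal + 16) scale for each member (points), with the 95% interval of the limma fit (bars). All 8 intervals include 0, and that of S100a9 is the widest, from −5.08 to 1.78.

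In all, 6 of the 8 members were lower and 2 higher on average in REL, where 58.2% of all probe sets had a difference below 0. The median difference was −0.27 over the members and −0.08 over all probe sets. Of the 8 members 0 were called at a limma adjusted p under 0.05, and 0 reached an unadjusted p under 0.05. Over all probe sets limma called 0.0% higher and 0.0% lower, while 2.89% were higher and 3.75% lower at an unadjusted p under 0.05. WT 2 was the highest array for 5 of 8 members, against 19.2% of all probe sets, and REL 2 the lowest for 4 of 8, against 32.3%. The intervals show the size that 5 arrays cannot exclude. For S100a8 that reaches a difference of −3.64 in one direction and 0.34 in the other, so the values do not show that the groups were alike.

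**Figure D3:**
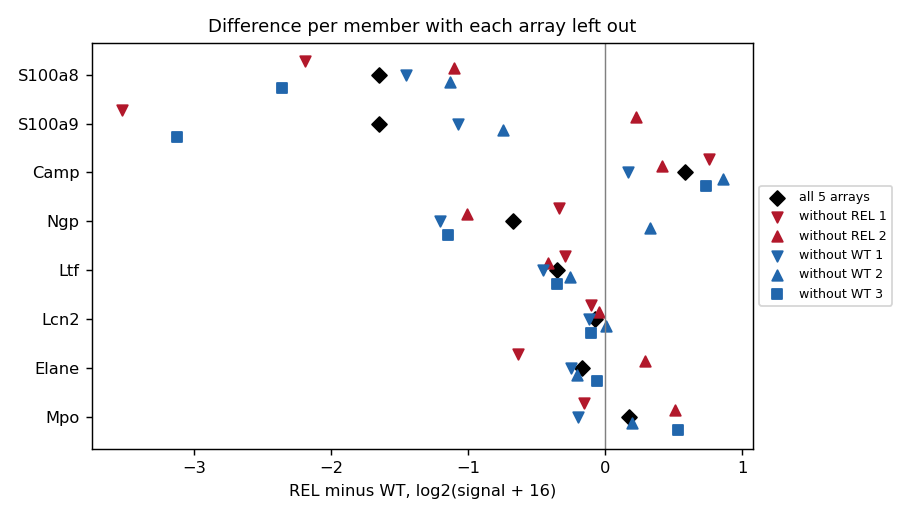
Difference of REL minus WT on the log2(signal + 16) scale for each member with all 5 arrays (black diamonds) and with each REL array (red) or WT array (blue) left out. S100a9 spans −3.53 to 0.23 and Ngp −1.21 to 0.33, while S100a8 stays between −2.36 and −1.11.

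No other listed neutrophil gene passed the test either. Of 38 listed, 30 had a probe set with a single symbol, and 10 were higher and 20 lower in REL, with a median difference of −0.20. At an unadjusted p under 0.05 there were 2 higher and 3 lower, against 2.89% and 3.75% of all probe sets, and 0 were called by limma. On all arrays 11 of the 30 stayed below the dim level, among them Cxcr2, the chemokine receptor of mature neutrophils, Csf3r, the receptor for granulocyte colony-stimulating factor, the collagenase gene Mmp8, the haptoglobin gene Hp, and the primary granule protease genes Ctsg and Prtn3. Both REL arrays were above every WT array for 2 of the 30, against 8.68% of all probe sets, and below for 6, against 14.1%.

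The 8 brightest genes of that list were Cybb, Ncf1, Slpi, Pglyrp1, Anxa1, Gfi1, Padi4 and G0s2. Cybb and Ncf1, subunits of the NADPH oxidase that B cells and macrophages also express, differed by 0.01 and 0.21 on the log2 scale. Pglyrp1, a peptidoglycan recognition protein of neutrophil granules, had 1912 and 1733 in REL and 627, 655 and 652 in WT, a difference opposite in sign to that of the calprotectin genes (1.47, SE 0.28, limma adjusted p = 0.575). Anxa1, the annexin that restrains inflammation, had 44.9 and 146 in REL and 653, 439 and 261 in WT (−2.14, SE 0.64, limma adjusted p = 0.642). Slpi, an inhibitor of neutrophil elastase, was at −0.55, the transcriptional repressor gene Gfi1 at −0.98, the histone-citrullinating enzyme gene Padi4 at −0.11 and G0s2 at −0.18. None of these 8 passed the threshold.

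The summed signal of the 8 members was 412 and 112 on REL 1 and REL 2 and 719, 1346 and 168 on WT 1 to WT 3, most of it from S100a9 on the brighter arrays. The sum over the other neutrophil genes was 8268 and 9403 in REL and 7309 to 10124 in WT, so that the REL arrays lay within the WT range. Most of that sum came from Cybb, Ncf1, Slpi and Pglyrp1 (mean signals 2541, 2134, 2015 and 1116). B cells also express Cybb and Ncf1, so the sum is no measure of neutrophils alone. Most macrophage and monocyte markers differed in the direction opposite to that of the calprotectin genes, with 17 of 20 higher in REL and a median difference of 1.55. Their summed signal was 8870 and 7323 in REL against 1434 to 2525 in WT. Of these 20 genes 12 were higher at an unadjusted p under 0.05, against 2.89% of all probe sets, and 0 were called by limma. Both REL arrays were above every WT array for 13 of the 20, against 8.68% of all probe sets, and below for 1, against 14.1%. Over all probe sets 58.2% had a difference below 0. C1qa, Ccr2 and Marco stayed below the dim level on all arrays. The brightest of the 20 were Mpeg1 (1.12), Lyz1 (3.31) and Lyz2 (3.08). Those lower in REL were Adgre1 (−0.83), Fcgr1 (−0.38) and Ccr2 (−0.13). Adgre1 had 120 and 116 in REL against 154, 435 and 161 in WT. Monocytes express S100a8 and S100a9, and the part of these cells in the calprotectin signals was not tested.

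Of the markers of eosinophils, basophils and mast cells 3 of 10 were higher and 7 lower, their sum was 209 and 136 in REL and 72.7 to 259 in WT, and 7 stayed below the dim level, among them Epx, Siglecf, Cpa3 and Fcer1a. Gata2, Prg2 and Mcpt8 were the brightest. Of the erythroid and platelet markers 3 of 9 were higher and 6 lower, and their sum was 351 and 117 in REL and 363 to 604 in WT, with Alas2, Hba-a1 and Klf1 below the dim level on all arrays and Hbb-b2, Pf4 and Ppbp the brightest. For T cell markers the sums were 6589 and 5378 in REL and 4915 to 5486 in WT (Cd2, Cd247 and Cd8a the brightest). For B cell markers they were 49182 and 55209 in REL and 48066 to 55072 in WT (Ms4a1, Cd79b and Cd79a). For germinal centre B cell markers they were 33185 and 35220 in REL and 33502 to 40092 in WT (Bcl6, Neil1 and Rgs13). The T cell, B cell and germinal centre B cell sums differed by a far smaller fold between arrays than that of the members. The erythroid and platelet sum (117 to 604) and the eosinophil, basophil and mast cell sum (72.7 to 259) varied more than these. Both still varied by a smaller fold than the sum of the members (112 to 1346). The T cell sum came mostly from Cd2 (5725 and 5088 in REL, 4396 to 5233 in WT) and hides wider spreads of dimmer genes. Of the 8 T cell markers 2, Cd3d and Cd4, stayed below the dim level on all arrays. The T cell sum thus follows Cd2 and does not speak for the list as a whole. Cd247 ranged from 16.3 on WT 2 to 630 on REL 1. The erythroid and platelet sum was lowest on REL 2, as was that of the members. REL 2 was also the lowest array for 32.3% of all probe sets.

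**Figure D4:**
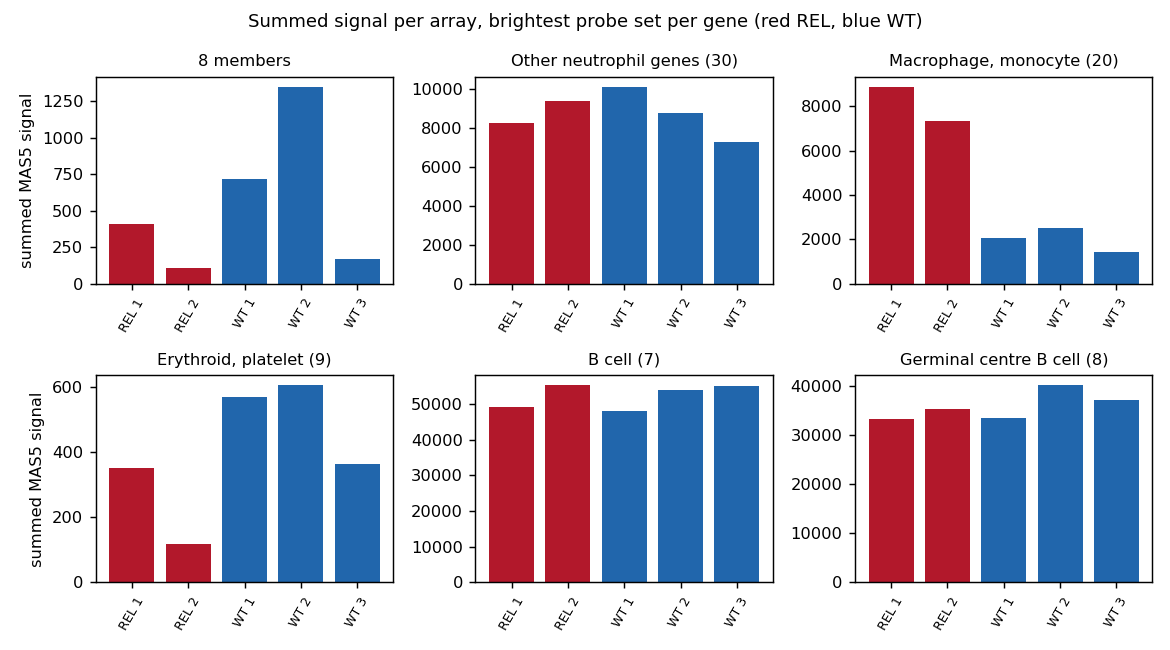
Summed MAS5 signal per array over the brightest probe set of each gene (linear axes from 0, each panel with its own scale), for REL arrays (red) and WT arrays (blue), with the number of genes in brackets. The sum of the 8 members ranges from 112 on REL 2 to 1346 on WT 2, while the macrophage and monocyte sum is 8870 and 7323 on the REL arrays and at most 2525 on the WT arrays.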

How the data were processed

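The deposited values are MAS5 signal intensities, not log-transformed, for 45101 probe sets on 5 single-colour arrays. Per the submitters' processing notes the tool was MAS5, and its version was not given in the sources used here. Small RNA amounts were amplified before labelling, per the labels' protocols. MAS5 subtracts mismatch signal on each array by itself, so low signals vary widely, and no detection calls were used.

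Probe sets with exactly 1 symbol (34958) were tested with no filter on dim signals, so that every member was tested. The log2(signal + 16) values were fitted in limma 3.58.1 (R 4.3.3) with group as the only term and a mean-variance trend. Benjamini-Hochberg adjustment ran over all of them, and calls were made below 0.05, two-sided. The fit had 3 residual degrees of freedom, and the number of arrays limits the precision. The code was tested on simulated data. Gene lists use each gene's brightest probe set.

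The members and lists were chosen with earlier results of these data known. Named by rule were all member probe sets, the 8 genes of the neutrophil list and the 3 of each other list with the highest mean signal, the 5 nearest profiles, and Rel. Genes named for their array order or for lying below the dim level were named after their values were seen. Alternatives changed the added constant, filter, scaling, variance model, replicate block, probe sets tested and arrays. Python 3.11.15, pandas 2.3.3, numpy 2.4.6 and scipy 1.17.1 served for tables, and matplotlib 3.10.9 for plots.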

Additional observations from a re-analysis of the deposited data

How the results depend on the processing

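Over 14 alternatives, 95 of 102 values of the members kept their direction and stayed short of the threshold, and the other 7 changed direction. Part of this count was fixed in advance. Dropping the variance trend, testing all probe sets and filtering dim probe sets leave the differences of the main fit unchanged. The replicate block gave the same differences as leaving out WT 3. The count is therefore no measure of how stable the directions are. Under median centring Lcn2 was at 0.060, and the median of all probe sets at 0.058, against −0.078. The other 6 changes came from leaving out 1 array. They were S100a9 (0.23) and Elane (0.29) without REL 2, Ngp (0.33) and Lcn2 (0.0013) without WT 2, and Mpo without WT 1 (−0.20) and without REL 1 (−0.16). Over the arrays left out, the differences ran from −3.53 to 0.23 for S100a9, −1.21 to 0.33 for Ngp, −0.12 to 0.0013 for Lcn2, −0.64 to 0.29 for Elane and −0.20 to 0.53 for Mpo, and the cause was not tested. The lowest limma adjusted p of a member under any alternative was 0.624. Of the 8 members, 3 (S100a8, S100a9 and Ngp) passed the filter on dim probe sets, so the other 5 have no value there. Ngp passed it through its WT 2 signal alone. The replicate numbers that the groups share are not said to pair the arrays, and the deviations of same-numbered arrays correlated at −0.019 and −0.0043. With the replicate block limma called 1 probe set lower, that of Mrpl33 (1 residual degree of freedom), against 0 in each other alternative, and S100a8 was at −2.36 and S100a9 at −3.13. The log2 ratio of summed signals was −1.51 for the members and 0.016 for the other neutrophil genes, or 0.063 with all probe sets of a gene. With the brightest probe sets, the sum of the other neutrophil genes came mostly from Cybb, Ncf1, Slpi and Pglyrp1. The 6 granule genes among the 8 members lay below the dim level on at least 4 of 5 arrays, which limits any statement about the granule genes.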
